A study of Homo sapiens with 4 samples.

Results

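A set of 1833 regions of the human genome, out of 39654 peaks in the IFN-γ-treated library and 30819 in the control, carried a Flag-FLI1 peak after IFN-γ but none in the control list and had a tandem repeat of the ETS core near the summit. They were chosen by 3 criteria. The peak overlapped no control peak, lay farther than 3 kb from the transcription start site (TSS) of every GENCODE 44 transcript (a distal peak), and held an uninterrupted run of at least 4 copies of GGAA, on either strand, within 100 bp of its summit. The first criterion uses the peak calls themselves, so the absence from the control list and the peak strengths that go with it are descriptions of the selection. The cells were HK1, an established nasopharyngeal carcinoma line, and both groups overexpressed Flag-tagged FLI1. The control cells received PBS and the IFN-γ cells received IFN-γ, in each case for 24 h, and the immunoprecipitation targeted the Flag tag, so endogenous FLI1 was not captured directly. Each condition had 1 library, with no replicate, so no test of the treatment was possible. The intervals below are exact (Clopper-Pearson) 95% intervals of shares and order-statistic 95% intervals of medians, and they cover counting error only. The input libraries of both conditions are not analysed here.

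FLI1 is a transcription factor of the ETS family, whose members share a DNA-binding domain that contacts the tetranucleotide GGAA. Native ETS factors are known mainly for single sites with a preferred flank, often at promoters, whereas the fusion EWSR1-FLI1 of Ewing sarcoma is known for binding tandem GGAA repeats far from promoters and opening enhancers there. IFN-γ signals through the JAK kinases, and its targets include transcription factors of the IRF family.

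The repeats themselves are shown for regions among the highest by −log10 p, for the region with the longest run, and for regions nearest to an ETS gene and an IFN-γ response gene. Each sequence is the 201-base window from 100 bp before to 100 bp after the summit in GRCh38, printed on the strand on which the run reads GGAA. Capitals mark the runs of at least 4 copies.
LINC00578 intron (chr3:177452301-177452501, minus strand): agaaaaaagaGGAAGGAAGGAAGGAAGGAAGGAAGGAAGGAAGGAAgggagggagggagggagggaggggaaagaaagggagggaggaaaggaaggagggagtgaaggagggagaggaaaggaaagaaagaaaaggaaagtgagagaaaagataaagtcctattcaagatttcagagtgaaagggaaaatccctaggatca
MYO16 upstream (chr13:108566651-108566851, plus strand): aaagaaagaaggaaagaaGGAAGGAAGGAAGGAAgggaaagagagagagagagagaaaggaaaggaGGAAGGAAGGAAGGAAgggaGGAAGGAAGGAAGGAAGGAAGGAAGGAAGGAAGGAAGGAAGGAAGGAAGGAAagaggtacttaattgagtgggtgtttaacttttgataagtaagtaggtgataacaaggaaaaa
AEBP2 intron (chr12:19630801-19631001, minus strand): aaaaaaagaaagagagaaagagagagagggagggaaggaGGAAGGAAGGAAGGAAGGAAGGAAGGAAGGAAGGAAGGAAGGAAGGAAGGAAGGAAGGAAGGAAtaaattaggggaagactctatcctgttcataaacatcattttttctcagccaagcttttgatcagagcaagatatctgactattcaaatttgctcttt
SHROOM4 intron (chrX:50618204-50618404, minus strand): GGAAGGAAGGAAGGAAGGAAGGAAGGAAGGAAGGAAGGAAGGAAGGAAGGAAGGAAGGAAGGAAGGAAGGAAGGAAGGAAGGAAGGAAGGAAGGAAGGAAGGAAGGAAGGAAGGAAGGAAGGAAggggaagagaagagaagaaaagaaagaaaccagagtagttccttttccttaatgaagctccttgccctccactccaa
ETS1 intron (chr11:128478416-128478616, plus strand): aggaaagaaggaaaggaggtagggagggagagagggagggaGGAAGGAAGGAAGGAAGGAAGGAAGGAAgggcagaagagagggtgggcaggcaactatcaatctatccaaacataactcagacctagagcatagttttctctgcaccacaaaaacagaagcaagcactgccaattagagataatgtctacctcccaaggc
IRF1 nearest (chr5:132522191-132522391, minus strand): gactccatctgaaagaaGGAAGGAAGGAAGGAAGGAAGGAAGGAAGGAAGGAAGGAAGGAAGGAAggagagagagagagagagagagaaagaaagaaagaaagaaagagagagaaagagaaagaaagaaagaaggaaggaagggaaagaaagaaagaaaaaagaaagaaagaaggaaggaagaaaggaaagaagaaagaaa

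The windows differed in build. In the LINC00578 and AEBP2 windows a single run of 9 and 16 copies sat in a longer stretch of G and A, and part of the window was of mixed sequence. The MYO16 window held 3 runs, the longest of 13 copies. The SHROOM4 run had 35 copies in the genome, of which 31 lay within the window.

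Over all 1833 regions the longest run had a median of 8 copies (7 to 8), with quartiles of 5 and 12 and a range of 4 to 35. Runs of 4 copies were the commonest, in 399 regions, and a second group of lengths peaked at 13 copies, with 132 regions. Only 3 regions had 20 copies or more. A second run lay in the window of 460 regions, 25.1% (23.1% to 27.1%). Runs on both strands occurred in 1 region, and in the others all runs had the same orientation. Between runs of the same orientation, 195 of 538 gaps (36.2%) were of 4 bp or less, and the tetranucleotide AGAA, which differs from the core by a single base, filled 69 of those 195. AGAA was also the commonest tetranucleotide directly before the run, in 22.5% of regions, and directly after it, in 21.5%. The purine-rich strand of the window had a median of 81.1% purines, and that of the shared distal repeat peaks had 80.6%. A run of GGAA is itself made of purines, so the rule fixes part of this value. No window was identical to another.

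**Figure D1:**
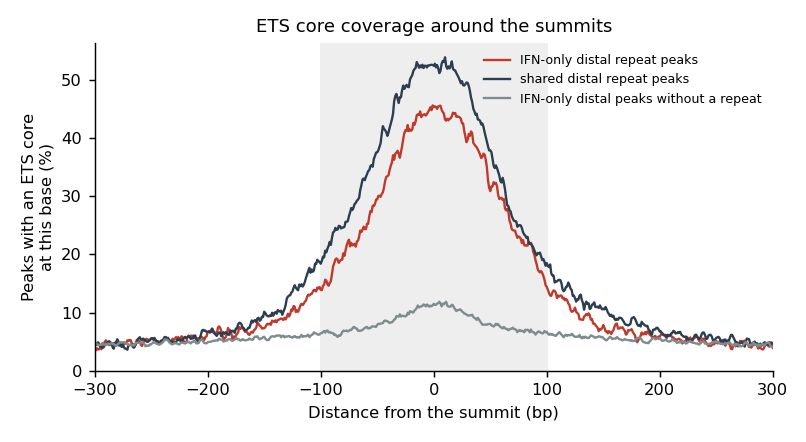
Share of peaks (y axis, percent) with a base of GGAA or TTCC at each distance from the summit (x axis, bp) for the 1833 IFN-only distal repeat peaks, the 1734 shared distal repeat peaks and the 9307 IFN-only distal peaks without a repeat, with the window of the rule shaded. Core coverage of the IFN-only repeat peaks reached 45.3% at the summit and was 3.60% at 300 bp before it, and that of the shared repeat peaks reached 52.4% at the summit.

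The median distance of the summit from the longest run was 16 bp (14 to 18), and the summit fell inside the run in 478 regions, 26.1% (24.1% to 28.2%). The longest run was counted if any part of it reached into the window. The rule required a run within 100 bp, so these distances are bounded by the choice of regions and are given as a description. In 418 regions no 4 tandem copies lay wholly within 50 bp of the summit. The median distance was 18 bp at 4 copies, 25.5 bp at 5 copies and 8 bp at 15 to 19 copies, and a longer run covers more of the window.

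As the IFN-γ library was the deeper, the IFN-only shares were first set beside the depth of the lists. The lists give no read totals, so the summit pileup in fragments and its local background were solved for every peak from its fold enrichment and −log10 p. The lowest backgrounds of the lists were 1.06 fragments for the control and 1.54 for IFN-γ, a relative depth of 1.46. Of all distal IFN-γ peaks, 53.0% (11140 of 21027) overlapped no control peak, and of the distal peaks on repeats 51.4% (1833 of 3567; 49.7% to 53.0%) did so. The share on repeats was close to that background. Peaks on repeats made up 16.5% of the IFN-only distal peaks against 17.5% (16.8% to 18.3%) of the shared ones. Lowering each pileup and background by the relative depth left 1773 of the 1833 regions (96.7%) above the lowest −log10 p of the control list, 3.52. The same held for 94.4% of all distal IFN-γ peaks and 89.7% of the IFN-only distal peaks without a repeat. These peaks were already called in the IFN-γ list, the limit is the weakest control peak, and only the ratio of 1.46 was used. The part of depth in the IFN-only label was therefore not tested. A region absent from the control list was under the calling cutoff there, and its control signal cannot be read from the lists.

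Peaks in the opposite direction were few. On distal repeats 1759 control peaks were called, and 68 of them, 3.87% (3.01% to 4.88%), overlapped no IFN-γ peak. Of the control distal peaks without a repeat, 28.3% (27.5% to 29.1%) overlapped none. The control-only repeat peaks had a median pileup of 10.5 fragments and a highest value of 20. Divided by the relative depth, the median pileup of the IFN-only repeat peaks was 11.7 fragments. The part of the difference in depth in these shares was not tested.

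The IFN-only repeat peaks were of moderate strength within their own library. Their median fold enrichment over the local background was 6.31 (6.19 to 6.39), with quartiles of 5.05 and 8.09 and a range of 2.64 to 21.3. The median −log10 p was 12.01 and the median width 323 bp. The median summit rested on 17 fragments (range 7 to 85) over a background of 1.77. By −log10 p, 1128 regions (61.5%) ranked in the lower part of the IFN-γ list, below its median, and 4 regions reached its top 10%. The strongest region ranked 2101 of 39654. Repeat peaks that were also called in the control were stronger in the same library, with a median fold of 11.1 (10.9 to 11.5) and a median pileup of 33 fragments. The IFN-only distal peaks without a repeat had a lower median fold of 5.13. Their median pileup was close, at 16 fragments, and their median background was higher, at 2.12. Because the overlap criterion removes sites that are strong in both libraries, the order of the shared and the IFN-only groups is partly set by the selection.

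**Figure D2:**
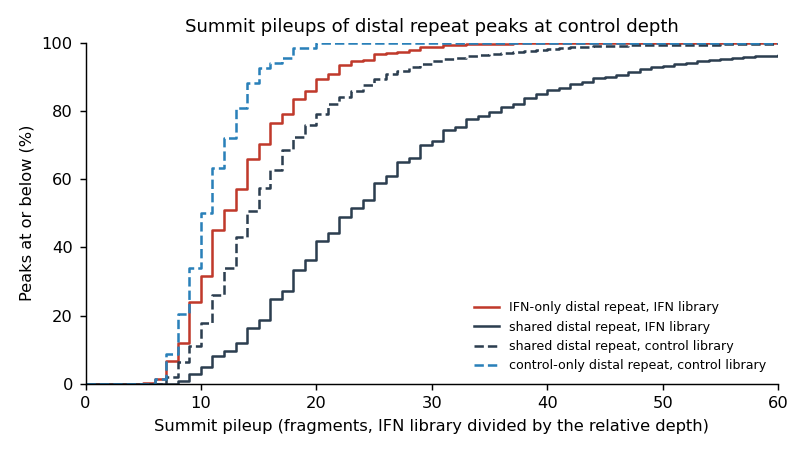
Cumulative share of peaks (y axis, percent) by summit pileup in fragments (x axis), with pileups of the IFN-γ library divided by the relative depth of 1.46, for distal repeat peaks. At control depth the median was 11.7 fragments for the IFN-only repeat peaks in the IFN-γ library, 22.7 for the shared repeat peaks in that library, 14 for the control peaks paired with them and 10.5 for the control-only repeat peaks.

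Fold enrichment was higher at longer runs. Among the IFN-only regions the median fold was 5.78 at 4 copies (n = 399), 6.31 at 8 to 9 copies (n = 191), 7.03 at 12 to 14 copies (n = 350) and 7.49 at 15 to 19 copies (n = 166). The quartiles overlapped between all of these classes, from 4.73 and 7.40 at 4 copies to 5.91 and 9.07 at 15 to 19 copies. Among the shared repeat peaks the median rose from 9.09 at 4 copies to 13.1 at 15 to 19 copies. The copy number is that of the reference genome, and the length of each repeat in HK1 cells was not measured.

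**Figure D3:**
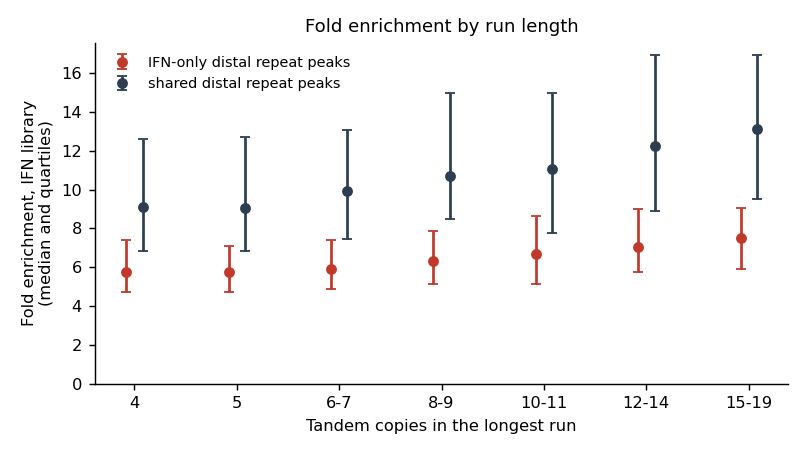
Median fold enrichment in the IFN-γ library with quartiles as bars (y axis) by number of tandem copies in the longest run (x axis), for IFN-only and shared distal repeat peaks. The median of the IFN-only peaks went from 5.78 at 4 copies to 7.49 at 15 to 19 copies and lay below that of the shared peaks in every class.

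To set the peaks against all the sites that could have been bound, every run of at least 4 copies on chromosomes 1 to 22 and X that lay beyond 3 kb from a TSS was listed, and runs within 100 bp of each other were joined. There were 10881 such loci. Loci are counted here rather than peaks, so the numbers differ from those of the set. An IFN-only summit lay within 100 bp of 1920 of them, 17.6% (16.9% to 18.4%), a summit of a shared peak near 1888, 17.4%, and a control-only summit near 74, 0.680%. No summit lay near 6999, 64.3%. Occupancy differed with length. At 4 copies 10.3% (9.43% to 11.3%) of 4140 loci had an IFN-only peak and 5.39% a shared peak, and 83.9% had none. At 8 to 9 copies the IFN-only share was 28.5% (25.2% to 32.0%) of 705 loci and the shared one 21.1%. Beyond that length the IFN-only share did not move past its intervals and was 27.4% (23.98% to 31.1%) at 15 to 19 copies, while the shared share rose to 52.5% (48.5% to 56.5%) and the share with no peak fell to 19.3%. Of occupied loci, those with short runs were more often IFN-only and those with long runs more often shared. Fold enrichment was also higher at longer runs in both groups, and the control library was the shallower. The IFN-only label is part of the rule, and the part of peak strength in this split was not tested.

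**Figure D4:**
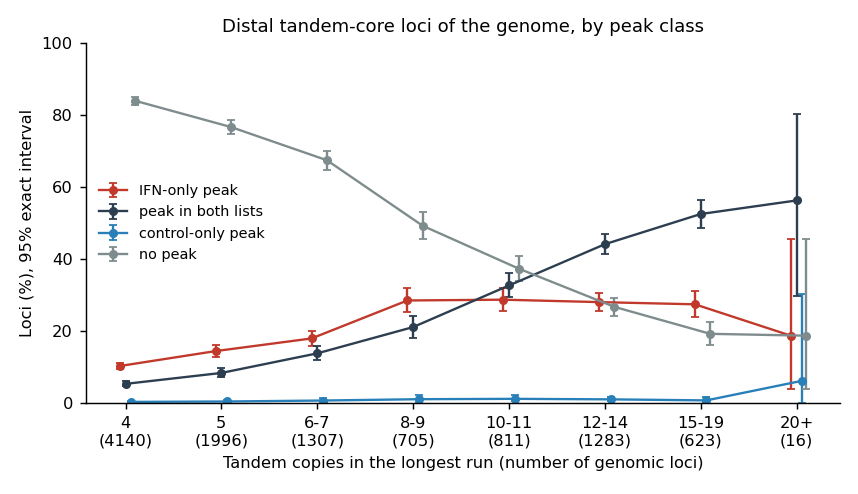
Share of distal tandem-core loci of the genome (y axis, percent, with exact 95% intervals) under an IFN-only peak, a peak of both lists, a control-only peak or no peak, by copies in the longest run (x axis, with the number of loci). The IFN-only share was 10.3% at 4 copies and between 27.4% and 28.7% in the classes from 8 to 19 copies, the shared share rose to 52.5% at 15 to 19 copies, and the class of 20 copies or more held 16 loci.

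Counted as peaks rather than loci, the same data gave the same split from 4 copies upward. Of distal IFN-γ peaks whose longest run had 4 copies, 68.0% (64.2% to 71.7%) were IFN-only. This share was 64.8% at 5 copies, 57.3% at 6 to 7, 58.7% at 8 to 9 and 47.7% at 10 to 11. It was 39.8% at 12 to 14 copies and 34.5% (30.4% to 38.9%) at 15 copies or more. At 3 copies, which the rule leaves out, the share was 68.1% and close to that at 4. At 2, 1 and 0 copies it was 49.9%, 52.8% and 70.9% (the last of 261 peaks), and over all distal IFN-γ peaks 53.0%.

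The change in signal was also read at repeats called in both libraries. These are the distal repeat peaks that the overlap criterion left out, and their pileups come from the values behind the calls. The groups compared below were not matched for peak strength, so the ratios are descriptions. At each of the 1734 shared distal repeat peaks the IFN-γ pileup was divided by the highest pileup of the overlapping control peaks and by the relative depth. The median ratio was 1.55 (1.51 to 1.57), and it was above 1 at 1553 of them, 89.6%. At the 8153 shared distal peaks without a repeat the median was 1.17 (1.16 to 1.185), with 64.9% above 1, and at the 14316 shared peaks within 3 kb of a TSS it was 0.868 (0.859 to 0.874). The median ratio at repeats went from 1.44 at 5 copies to 1.60 at 12 to 14 copies, and the intervals of all classes overlapped. With the depth ratio taken from the median backgrounds of shared peaks, 1.84, the 3 medians became 1.22, 0.927 and 0.686, so the order of the groups was kept but distal peaks without a repeat passed below 1. The shares above 1 then became 70.5% at repeats and 43.0% at distal peaks without one. As each condition was a single library, the treatment and the library cannot be told apart.

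**Figure D5:**
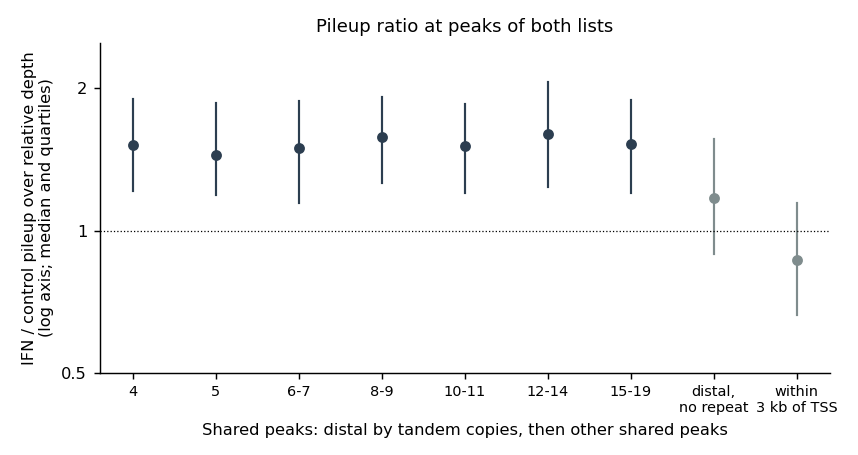
Ratio of IFN-γ to control summit pileup, divided by the relative depth of 1.46 (y axis, log axis, median with quartiles as bars) at peaks of both lists, for distal repeat peaks by number of copies and for other shared peaks (x axis). All classes of repeat peaks had medians between 1.44 and 1.60, above the 1.17 of distal peaks without a repeat and the 0.868 of peaks within 3 kb of a TSS.

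The windows were searched for other binding motifs. The FLI1 octamer (CAGGAAGT or CCGGAAGT, which contains the core) occurred in 12 of the 1833 windows, 0.655% (0.339% to 1.14%), against 13.5% of all IFN-γ peaks, 0.865% of the shared distal repeat peaks and 0.955% of windows 1 kb away, which lies within the interval. AP-1 sites (TGACTCA or TGAGTCA) were in 1.58% (1.06% to 2.26%), against 17.2% of all IFN-γ peaks, 1.56% of the shared distal repeat peaks, 26.2% of the IFN-only distal peaks without a repeat and 3.11% of the windows 1 kb away. The letters of the interferon-gamma activated site (GAS), TTCNNNGAA, were in 2.84% (2.13% to 3.70%), against 6.38% of all IFN-γ peaks, 2.71% of the shared distal repeat peaks and 6.49% of the windows 1 kb away. All searches covered both strands. The octamer, AP-1 and GAS letters mix purines and pyrimidines, which a run of GGAA alone cannot hold. The rule therefore sets part of their low shares. Letters of the core of the interferon-stimulated response element, which IRF factors bind (TTTC, any 2 bases, then TTTC), were found in 34.4% (32.2% to 36.7%), against 7.96% of all IFN-γ peaks, 21.7% of the shared repeat peaks and 4.23% of the windows 1 kb away. In 605 of these 631 windows a match consisted of purines or pyrimidines alone, as the repeat tract does, so the letters and the tract overlap. A match of letters is not a bound site.

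Between 25 and 160 regions were on each of 23 chromosomes, with a median density of 0.638 per Mb. The share of repeat loci with an IFN-only peak ranged from 14.1% to 19.7% between chromosomes, and the interval held the overall share on all 23. Introns held 880 regions, 48.0% (45.7% to 50.3%), intergenic sequence 936, 51.1%, and exons 17, 0.927%. Coding genes held 591 regions, 32.2% (30.1% to 34.4%), against 43.7% of the IFN-only distal peaks without a repeat. Repeat loci without any peak lay inside coding genes as often, 32.1% (31.0% to 33.2%). Inside coding genes the run read GGAA on the strand opposite to the gene at 66.1% (62.2% to 69.9%) of the loci with an IFN-only peak, at 66.0% of those with a shared peak and at 61.1% (59.0% to 63.1%) of those with none.

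The median distance from the summit to the nearest TSS of any gene was 18.8 kb (17.5 to 19.96), and to the nearest TSS of a protein-coding gene 50.7 kb (46.4 to 55.9). Distances beyond 100 kb from any TSS were found for 140 regions. The nearest TSS belonged to a protein-coding gene for 35.4%, to a long non-coding RNA gene for 34.1% and to a processed pseudogene for 17.1%. The regions were scattered, since 52 of them had another within 10 kb. The nearest control peak was a median of 45.1 kb away, and 35 regions had one within 1 kb. Reads were of 150 bases, and at 1824 of the 1833 regions (99.5%) all 5 stretches of that length that were tried across the summit occurred once in the reference. Of the other 9 regions, 8 lay in the first 3 Mb of chromosome X.

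Of the 10 regions with the highest −log10 p, the first was in an intron of the long non-coding RNA gene LINC00578 (chr3:177452140-177452775), with a fold of 20.5, a −log10 p of 88.5 and 85 fragments. A control peak lay 698 bp from it, so this region is IFN-only by a narrow distance. A region in an intron of WWTR1, which encodes the Hippo pathway coactivator TAZ (chr3:149622328-149622738), had a fold of 18.8 and 64 fragments, and its nearest control peak was 34.6 kb away. The region 29.4 kb upstream of MYO16, an unconventional myosin gene (chr13:108566469-108567095), had the highest fold of all, 21.3, with 58 fragments. An intron of AEBP2, a partner of the Polycomb complex PRC2, held a region of fold 18.4 on 16 copies. The next were an intergenic region 38.3 kb from KTN1 (fold 20.1, 15 copies), an intron of CPAMD8 (fold 19.3, 6 copies) and a region on chromosome X nearest to VCX2 (fold 19.3, 10 copies). They were followed by an intron of the zinc transporter gene SLC39A8 (fold 18.5, 13 copies), an intergenic region 49.5 kb from the ETS gene ETV5 (fold 17.6, 10 copies) and one 44.8 kb from PMAIP1, which encodes the pro-apoptotic protein NOXA (fold 17.7, 12 copies).

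The longest runs were not the strongest peaks. The SHROOM4 intron on chromosome X, with 35 copies, had a fold of 3.94 and 9 fragments. A run of 20 copies, in a non-coding gene 587 kb from NEGR1, had a fold of 10.6, and another, 6.77 kb from the ceramidase gene ACER1, a fold of 8.67. A pair of regions on chromosome 4 with 19 copies had folds of 13.0 and 11.4, the second with PDGFC, a growth factor gene, as its nearest coding gene.

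Genes were grouped in 9 lists of 173 genes in all. For 8 regions the nearest TSS of any gene belonged to a listed gene. BMPR1A, a type I receptor for bone morphogenetic proteins, had the strongest, in its own intron, with a fold of 9.65 and 36 fragments over 9 copies. OVOL2, a zinc finger factor of epithelial cells, carried an intronic region of fold 9.46. The ETS genes ERG and ETS1 had regions of fold 9.02 and 7.89, at 28.3 kb and 14.6 kb from the nearest TSS of the gene. The ETS1 region was in an intron, upstream of an internal TSS. GRHL2, an epithelial factor of the grainyhead family, had an intronic region of fold 8.09 on 12 copies. Weaker regions were nearest to IRF1, the IFN-γ-induced transcription factor (fold 4.70, 17 fragments, 13.6 kb), and in an intron of the acetyltransferase gene KAT6B (fold 4.90). Their ranks by −log10 p in the IFN-γ list were 29123 and 31240.

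By nearest coding TSS, 27 regions belonged to a listed gene, among 1487 distinct coding genes, which is 7.43% of all 20020. Of the 37 IFN-γ response genes, 2 (5.41%) were nearest to a region, IRF1 and SOCS3, the feedback inhibitor of JAK signalling. The SOCS3 region, 9.35 kb from its TSS, had a fold of 12.9 and 36 fragments on 5 copies, and a control peak lay 542 bp from it. Of 13 kynurenine pathway genes 1 was nearest to a region, GOT2, at 1159 kb. Of 12 histone acetyltransferase genes 2 were, KAT6B and EP300, the latter at 57.6 kb with a fold of 10.3. No AP-1 gene of 11 was nearest to a region. Of the 27 ETS genes 5 were (18.5%), ERG, ETS1, ETV5, ETV6 and ETV7, of which 2 (7.41%) were by the nearest TSS of any gene, and ERG and ETS1 had 2 regions each. The ETV6 region (fold 5.13) lay 844 bp from a control peak. Of 17 genes known as EWSR1-FLI1 targets with GGAA repeats in Ewing sarcoma, 6 were nearest to a region by coding TSS (35.3%), an assignment added after the values were seen, and 0 were by the nearest TSS of any gene, against 3.01% of all coding genes. Among them PRKCB, a protein kinase C gene, had a region of fold 12.6 inside the gene, 56.8 kb upstream of an internal TSS. The distance to the start of the PRKCB gene itself was not measured. CAV1, the caveolin gene, had one of fold 8.51 at 29.4 kb from its nearest TSS. The other 4 lay outside their genes, EGR2 at 86.7 kb, BCL11B at 141 kb, SOX2 at 472 kb and VRK1 at 902 kb. Of 25 squamous lineage and keratin genes 5 were, SOX2, EGFR, TFAP2C, GRHL2 and OVOL2, and of 15 TGF-β and SMAD genes 3, BMPR1A, SMAD2 and TGFB2. The lists are short and genes in large intergenic spaces are the nearest gene of more sites, so these counts describe the lists without a test. The Ewing sarcoma list holds genes known for GGAA repeats, and each region lies on such a repeat by rule. Its 35.3% is therefore partly set by the choice, and the share for repeat loci without a peak is not given here.

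Some genes had several regions. FLRT2, which encodes a cell adhesion protein, and SPDYE21 were the nearest coding gene of 7 each, none of them inside the gene. CNTNAP2, a neuronal adhesion gene, held 6 regions within the gene, with folds from 3.45 to 9.46. For 1231 coding genes there was a single region.

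Peaks on either side of each limit of the rule are given as examples. The strongest regions with a run of 4 copies were in introns of TNFRSF8, the CD30 gene (fold 14.1, 53 fragments), and MED12L (fold 15.1, 49 fragments), and in intergenic sequence 253 kb from EDIL3 (fold 15.0). Just outside, with 3 copies, the strongest were in an intron of COL5A1 (fold 15.0, 64 fragments), in an intron of the pseudogene ENSG00000286215 (fold 17.6) and 50.2 kb from XXYLT1 (fold 13.5). The median fold was 5.86 for the 432 regions with 4 copies within the window and 5.22 for the 395 peaks with 3. Just beyond 3 kb from a TSS lay regions at PFKM (fold 6.32), near ENSG00000264520 (fold 7.89) and near ENSG00000288951 (fold 6.31), and just within it peaks at KRT78 (fold 3.74), SAA2 (fold 6.70) and ENSG00000270301 (fold 4.34). The regions closest to a control peak were 118, 188 and 252 bp from it, with folds of 3.43, 2.86 and 6.31, and the repeat peaks with the least overlap shared 92, 117 and 118 bp with a control peak, with folds of 3.45, 5.75 and 8.34. The longest runs farthest from a summit were at MIR7-3HG (100 bp, fold 7.05), in LINC01807 (96 bp, fold 4.17) and near SOCS2 (96 bp, fold 7.58). These runs lay mostly outside the window, which also held a separate run of 5, 4 and 12 copies, respectively. The rule was met by those separate runs, so these regions are not at its window limit. Of the peaks with a run only beyond the window, the strongest included COL5A1 and one at ASIP (fold 12.5). CREBBP, the gene of CBP, had no region in the set. The IFN-only peak on a run of 4 copies in its intron (chr16:3839618-3839904, fold 6.93, 22 fragments) lay 624 bp from the TSS of the pseudogene DPPA3P6, inside the 3 kb limit.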

How the data were processed

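Flag ChIP-seq peak lists were used for 2 libraries, 1 of control (PBS) and 1 of IFN-γ-treated HK1 cells. Per the submitters' processing notes and the study's methods, the authors used Cutadapt 1.18 for trimming, Bowtie2 2.3.4.1 for alignment (GRCh38), Picard for duplicate removal and MACS2 2.1.2 for peak calling in each library. The deposited columns are fold enrichment at the summit (a ratio over the local background), −log10 p, −log10 q and a summit offset, and the deposited display score was not used.

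Positions were made 1-based. Genes and TSSs were from GENCODE 44, sequence from GRCh38. Summit pileups and backgrounds were recovered as whole fragments from fold and −log10 p, with a relative error of at most 6.21e-06. Distances for the 3 kb rule ran from the edge of the peak, other TSS distances from the summit. A TSS is the start of any annotated transcript, so it can lie inside a gene. Windows were 201 bases wide. Depth per sample is given as the ratio of lowest backgrounds, since no read totals were used here.

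Named regions were the 10 with the highest −log10 p, the 5 with the most copies, those whose nearest gene was listed, the CREBBP intron peak and the 3 on either side of each limit. Regions assigned by nearest coding TSS and genes with several regions were added after their values were seen. The members and lists were chosen with earlier results of these data known. Tests on simulated data covered the recovery of pileups, the search for runs, gaps and nearest points, and the counts of stretches. Python 3.11.15 was used with pandas 2.3.3, numpy 2.4.6, numba 0.67.0, scipy 1.17.1, matplotlib 3.10.9, pysam 0.24.0 and samtools 1.23.1. Alternatives changed the copies, window, TSS distance, overlap and peak thresholds. A few named regions, sequences and 1 gene list are not reported here.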

Additional observations from a re-analysis of the deposited data

How the results depend on the processing

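With 1 library per condition, a list of peaks above a cutoff and few fragments at most summits, absence from the control list cannot be read as absence of binding, and the intervals leave out variation between cultures. Of 135 values recomputed under 19 alternatives, 98 stayed within 1.5 times the count or within the interval of the value in the report. The other 37 are given here. At least 3, 5 and 6 copies gave 20%, 12.6% and 10.0% of IFN-only distal peaks on a repeat, 53.6%, 47.8% and 44.8% of distal repeat peaks IFN-only and a median run of 6, 10 and 11 copies, with a median fold of 6.08 at 3 copies, and 1114 regions and a fold of 6.70 at 6. Allowing 1 substituted base gave 20.2%, 54.2%, a fold of 6.08 and 6 copies. A window of 50 bp gave 12.7%, 49.05% and a fold of 6.50, and one of 200 bp gave 18.1%. TSS limits of 1 kb and 10 kb gave 15.6% and 17.9% of IFN-only distal peaks on a repeat and a median TSS distance of 15.5 kb and 28.2 kb, and 10 kb gave 45.1% in introns. Distances were 15.99 kb with the limit on coding TSSs alone and 50.7 kb to the nearest coding TSS. Requiring no control summit within 100 bp gave 55.8% IFN-only and a fold of 6.40. A q-value under 1e-05 in both lists gave 20.2%, 57.5% and a fold of 7.10, an IFN-γ list cut to the control's length gave 19.8%, 45.6% and a fold of 7.04, and the control floor at control depth gave 17.5%. Taking depth from median backgrounds, chosen after seeing the data, moved the pileup ratio at shared repeats to 1.22. No paired analysis was possible because there was a single library of either condition.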
